A study of Mus musculus with 4 samples.

Results

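Cytosolic ribosomal proteins are the protein part of the ribosome outside mitochondria, and their genes were chosen here by name alone: a probe set counted where its only gene symbol was that of a ribosomal protein gene of the large subunit (Rpl, Rplp) or the small subunit (Rps, Rpsa). This gave 108 probe sets for 67 genes, 42 of the large and 25 of the small subunit, among 22180 named genes on the array. Values of a gene's probe sets were averaged on the log2 scale. Of 80 known cytosolic ribosomal proteins, 58 were covered (35 large, 23 small). A further 19 lacked a single-gene probe set, 11 large and 8 small. Of these, 12 (Rpl10, Rpl12, Rpl13a, Rpl23, Rpl24, Rpl31, Rpl35a, Rpl36, Rpl36a, Rps2, Rps15a and Rps21) had only probe sets that also carry the symbol of another gene, and the other 7 were not analysed here. The remaining 3 proteins, that of Fau among them, have gene names that the rule does not take. The other 9 genes chosen were paralogs or copies: Rpl10l, Rpl22l1, Rpl32l, Rpl39l, Rpl3l, Rpl6l, Rpl7l1, Rps27l and Rps4l. RefSeq lists Rpl6l and Rps4l as pseudogenes.

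RNA came from primary hepatocytes, liver parenchymal cells taken from male mice 2 months old and kept for 16 h in medium without serum. Cells of wild type (WT) and of Chrebp-KO (KO) mice were each kept without fructose (control) or with 25 mM of it, which gives 4 groups of 1 array. ChREBP, encoded by Mlxipl, is a sugar-responsive transcription factor of glycolytic and lipogenic genes, and the design asks how fructose and the loss of this factor alter expression. The labels do not give the number of animals behind an array, the deleted part of the gene or what the control medium held in place of fructose, and their extraction text names liver RNA. With 1 array per group no comparison of 2 groups has a replicate check, and differences are given by size. A fit that takes the fructose effect as equal in both genotypes was not run.

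Ribosomal proteins assemble with ribosomal RNA into a small subunit, which decodes the mRNA, and a large subunit, which joins the amino acids. Their genes are expressed in every cell and tend to be regulated together, because the proteins are needed in equal numbers. Most of their mRNAs begin with a cytosine followed by a run of pyrimidines, the 5′ terminal oligopyrimidine (TOP) tract, through which the growth-sensing kinase mTORC1 controls their translation. In hepatocytes the ribosome supports a large output of secreted proteins.

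The TOP tract is shown for 6 genes because it is the sequence feature for which this family is best known and because most of the genes carrying it were lower with fructose while Rps27, read from its single-gene probe set, was higher. Each window runs from 10 bases before the annotated start of transcription through the first 20 transcribed bases, 5′ to 3′, with the unbroken run of C and T from the start base in capitals.
Rpl14: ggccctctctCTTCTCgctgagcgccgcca
Rpl15: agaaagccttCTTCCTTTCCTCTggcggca
Rpl28: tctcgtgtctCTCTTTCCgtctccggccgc
Rpl38: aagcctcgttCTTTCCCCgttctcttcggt
Rps6: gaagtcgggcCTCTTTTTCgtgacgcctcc
Rps27: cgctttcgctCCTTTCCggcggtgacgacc
The sequences are from RefSeq (GRCm38.p6), in the order above at chr9:120571507-120571536 on the plus strand, chr14:18270967-18270996 on the minus strand, chr7:4792955-4792984 and chr11:114668570-114668599 on the plus strand, and chr4:86857348-86857377 and chr3:90213629-90213658 on the minus strand. A start base C followed by at least 4 further bases that are each C or T, read on the transcribed strand only, was found at an annotated start of 11 of the 52 ribosomal protein genes with a RefSeq start sequence (21.2%). Among all 27025 genes with a start sequence the share was 3.01%. A gene without a match lacks such a run from exactly its annotated start base, which may not be the base most used in hepatocytes. It can still have a shorter or shifted run. A C or T run of at least 8 bases, at least partly within 20 bases of the start, was found in 29 of the 52 (55.8%). The share in all genes with a start sequence was 23.7%. Of the 9 genes with the tract that were above background, 8 were lower with fructose in WT (median log2 difference -0.30) and 8 in KO (-0.11). Among the 34 others with a start sequence, 28 were lower in WT (-0.17) and 26 in KO (-0.10). In all detected genes 52.5% were lower in WT and 50.6% in KO.

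The background level was a log2 value of 4.764, the 95th percentile of 1105 olfactory receptor genes, which are taken as silent in liver cells. Detected genes are those above this level on any array of the comparison. Of the 67 genes, 55 were above background on at least 1 array, 34 large and 21 small. The 12 others were Rpl10l, Rpl27a, Rpl30, Rpl32l, Rpl39, Rpl39l, Rpl3l, Rplp2, Rps14, Rps15, Rps16 and Rps20. A value near background does not show that the mRNA was absent, since probe sets differ in how well they bind. Values therefore compare 1 gene across arrays and not genes with each other. Ribosomal protein genes have many processed copies in the genome, and probes that match a copy make single values uncertain.

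Mlxipl itself had log2 levels of 8.08 and 8.43 in WT cells without and with fructose, and of 7.42 and 7.37 in KO cells. All 10 hepatocyte markers, among them Alb, Ttr and Cps1, were above background. In all detected genes, the median log2 difference with fructose was -0.03 in WT and 0.00 in KO. RMA, the normalization behind these values, makes the distributions of the arrays alike. A value is thus relative to the other signals of its array and not an absolute amount of mRNA. In such bulk RNA fewer cells of a type and less RNA per cell cannot be told apart.

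In WT hepatocytes, ribosomal protein mRNAs were mostly lower with fructose, each by a small amount. Of 55 detected genes, 45 had a difference below 0, and the median was -0.15 for the large and -0.24 for the small subunit. At a threshold of 1.2-fold, 21 genes (38.2%) were lower, where 28.1% of all detected genes were, and 5 (9.09%) were higher, where 24% of all detected genes were. At 2-fold 0 were called in either direction, against 3.01% and 3.1% of all detected genes. Below-0 differences were found in 52.5% of all detected genes and in 81.8% of these. When each array was centred on its median, 12 were lower and 6 higher at 1.2-fold. The count of lower genes thus depends on the scaling. No share of all detected genes is given for centred arrays, so the contrast with that share covers only the values as deposited.

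**Figure D1:**
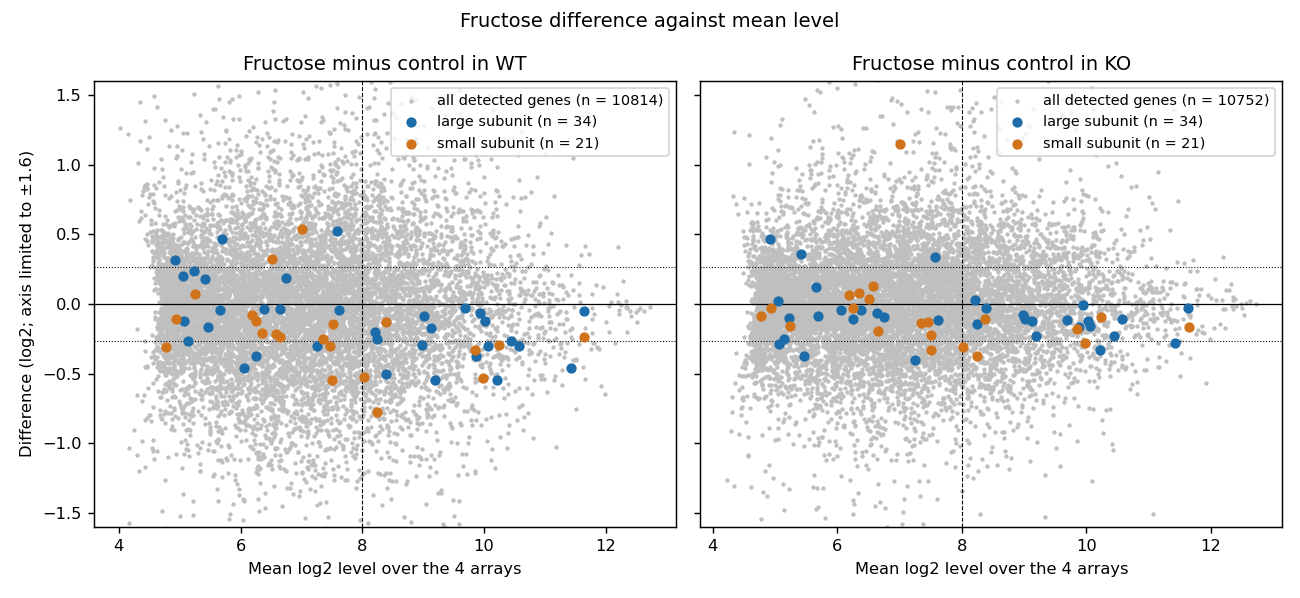
Fructose minus control (log2, vertical axis) against the mean log2 level over the 4 arrays (horizontal axis) in WT (left) and KO (right), with 1 point per gene. Grey points are all detected genes, coloured points the 34 large and 21 small subunit genes, dotted lines 1.2-fold and the dashed line a mean of 8. To the right of the dashed line all 24 ribosomal protein genes lie below 0 in WT and 23 in KO.

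The shift was most uniform among genes whose probe sets gave a high signal. For the 24 genes with a mean log2 level of at least 8, a level chosen after the values were seen, all 24 were below 0 in WT, with a range from -0.77 to -0.03 and a median of -0.30. Of all 2879 genes at that level, 52.8% were below 0. Of the 24, 14 were lower at 1.2-fold and 0 higher, against 29.8% and 25.6% of all genes at that level. The 31 detected genes under this level went both ways, 21 below 0 and 10 above, with a median of -0.11.

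Among small subunit genes, Rps13, a protein of the platform side of the subunit, had log2 levels of 8.44 and 7.67 in WT cells without and with fructose, and of 8.61 and 8.24 in KO cells. WT fructose was the lowest array, 1.71-fold below WT control, the largest difference among the detected ribosomal protein genes in this comparison. Rps9, which lines the mRNA entry channel, had levels of 8.13, 7.60, 8.34 and 8.03 in the same order (WT before KO, control before fructose). Its WT fructose value was 1.44-fold below WT control, as an average of a brighter probe set at -0.33 and a dimmer one at -0.73. Rps12 had levels of 10.17, 9.63, 10.21 and 9.93, with WT fructose again lowest. It was averaged over 8 probe sets, of which 6 held identical values. Rps27l, a paralog of Rps27 known as a p53-responsive gene, had levels of 7.71, 7.16, 7.74 and 7.41 and was 1.46-fold lower with fructose in WT. Rps6, the substrate of S6 kinase downstream of mTORC1, showed a smaller difference, with levels of 11.70, 11.46, 11.79 and 11.62. A much dimmer probe set shared by Rps6 and Rps6-ps4 was higher with fructose, by 0.14 in WT and 0.16 in KO. In the single-gene values of each of these genes both control arrays were above both fructose arrays.

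Other small subunit genes had differences of the same sign. Rps3, which also sits at the mRNA entry channel, was lower by a log2 difference of -0.33, Rps4x by -0.30 and Rps19, a gene mutated in Diamond-Blackfan anaemia, by -0.30. A dimmer probe set shared by Rps3 and Snord15b was higher with fructose, by 0.07 in WT and 0.12 in KO. Rpsa, known as the laminin receptor precursor, differed by -0.13, Rps23, a decoding-site protein, by -0.12, and Rps7 by -0.11. The narrowest range over the 4 arrays in this subunit was that of Rps23, 0.12 log2 units. The average of Rps18 over its 3 probe sets lay above background on the control arrays alone. Its brightest probe set was above background on all 4 arrays and differed by -0.22 with fructose in WT.

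Among large subunit genes, Rpl23a, which lies beside the exit of the nascent chain, had levels of 9.43 and 8.88 in WT cells without and with fructose, and of 9.35 and 9.12 in KO cells. Rpl32 had levels of 10.47, 9.92, 10.40 and 10.08. Both were 1.46-fold lower with fructose in WT, and both fructose arrays lay below both control arrays. Rpl15, which contacts ribosomal RNA at many points, had levels of 11.57, 11.11, 11.66 and 11.38, a WT difference of -0.46. Rpl14 differed by -0.38 and Rpl38, known for its part in translation of Hox mRNAs, by -0.30. Rpl6l, listed as a pseudogene, differed by -0.30, Rpl29 by -0.27 and Rpl13 by -0.25. At the other end, Rpl28 had levels of 11.58 to 11.68 and Rpl41, the smallest ribosomal protein, 9.92 to 9.997, the narrowest ranges in this subunit (0.10 and 0.08). The high-signal genes thus shared a direction and not a size.

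The P stalk, which recruits the elongation factors, is formed by Rplp0, Rplp1 and Rplp2. Rplp1 had levels of 8.57, 8.07, 8.47 and 8.44, lower by -0.50 with fructose in WT and by -0.03 in KO, where its bright probe set gave -0.38 and -0.25. Rplp0 differed by -0.04 in WT and -0.06 in KO, but its 2 probe sets had opposite signs in WT (-0.20 and 0.12). Rplp2 was not above background on any array. In the 5S particle, Rpl5 and Rpl11 join the 5S ribosomal RNA and can bind MDM2, the p53 inhibitor. Rpl5 had levels of 5.47, 5.94, 5.73 and 5.65, higher with fructose in WT (0.47) and not in KO (-0.08). Rpl11 had levels of 4.74, 5.06, 4.70 and 5.17, above background with fructose alone. It was at least 1.23-fold higher in WT and at least 1.32-fold in KO.

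**Figure D2:**
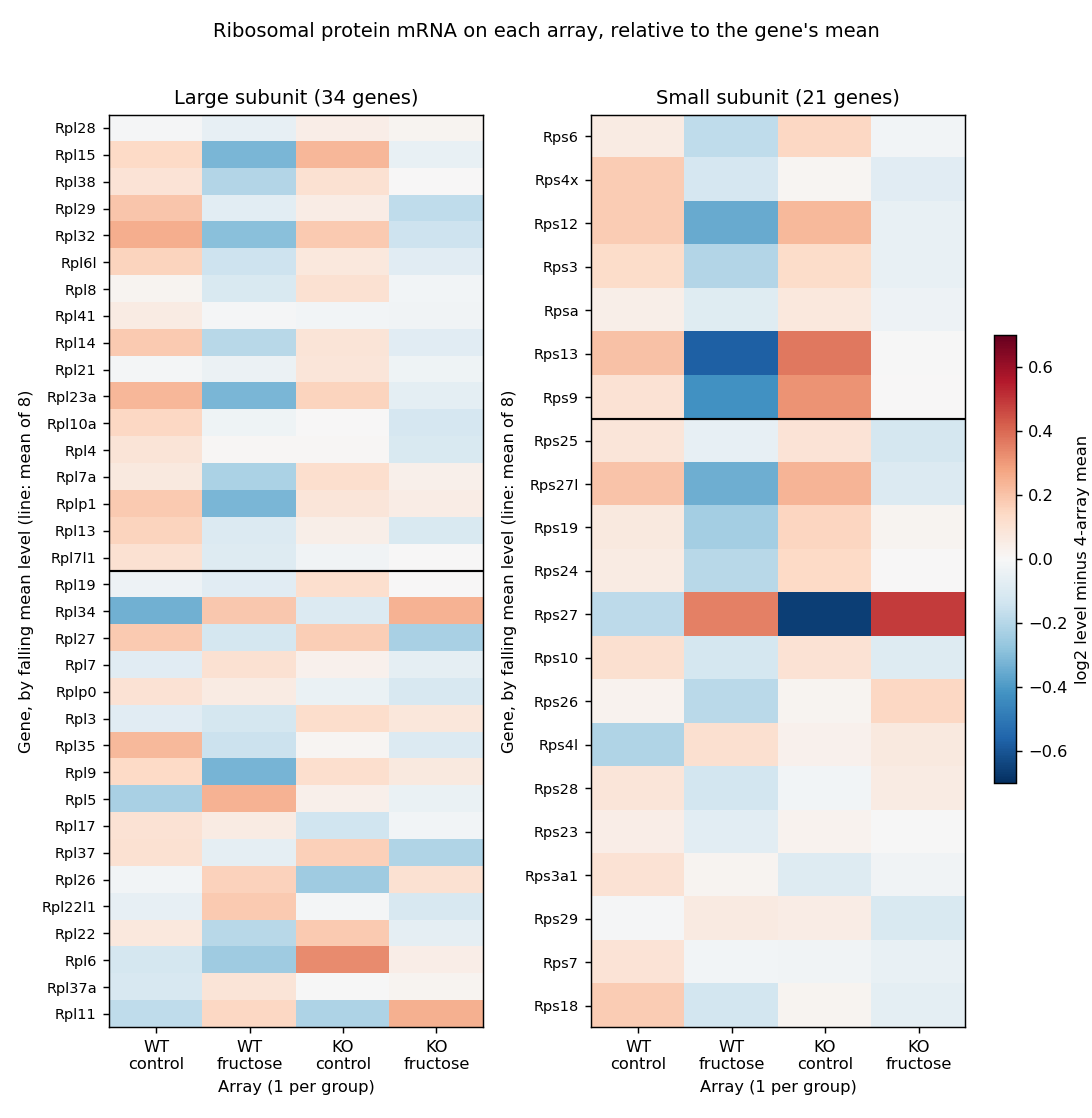
Log2 level of each detected ribosomal protein gene on the 4 arrays minus the gene's own 4-array mean (colour), for 34 large subunit genes (left) and 21 small subunit genes (right), ordered by mean level; the black line marks a mean of 8. Above the line the lowest array was WT fructose for 19 of 24 genes and KO fructose for the other 5, and Rps27 stands out with the opposite pattern.

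In KO hepatocytes, fructose went with differences of the same sign and smaller size. Of 55 detected genes, 44 were below 0, where 50.6% of all detected genes were, with medians of -0.11 for the large and -0.13 for the small subunit. At 1.2-fold, 9 genes (16.4%) were lower, under the 21.4% of all detected genes, and 4 (7.27%) were higher, where the share in all detected genes was also 21.4%. At 2-fold 0 were lower and 1, Rps27, was higher, against 1.18% and 1.68% of all detected genes. The 4 higher genes were Rps27 (1.15), Rpl11, Rpl26 (0.36) and Rpl34 (0.34), and the lowest were Rpl27 (-0.40), Rpl37 (-0.38), Rps13 (-0.37), Rpl32 (-0.33) and Rps27l (-0.33). Rps9 differed by -0.31 and Rps12 by -0.28. The values of Rpl27 and Rps9 are averages of 2 probe sets each. For Rpl27 the brighter gave -0.25 and the dimmer -0.55, and for Rps9 they gave -0.19 and -0.43. Of the 24 genes with a mean of at least 8, 23 were below 0, where 48.9% of all genes at that level were, and their median was -0.14. At 1.2-fold 5 of them were lower and 0 higher, against 20.5% and 24.1%. Rpl7l1, a paralog of Rpl7, was the exception at 0.03.

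Among the high-signal members a control array was always the highest and a fructose array always the lowest. For the 23 genes below 0 in both genotypes this follows from those signs and is not a separate result. The highest array was WT control for 12 of the 24 and KO control for the other 12, and no fructose array was the highest for any. In all 2879 genes at that level these arrays were the highest for 24.9% and 23.5%. WT fructose was the lowest array for 19 of the 24, where it was the lowest for 38.5% of these genes. In the small subunit it was the lowest for all 7. Relative to the gene's own mean, the median deviation was 0.13 on WT control, -0.16 on WT fructose, 0.09 on KO control and -0.04 on KO fructose.

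The genes higher with fructose were read from probe sets of lower signal, and for several of them a brighter probe set, shared with a copy of the gene, gave the opposite sign. Rps27, a zinc-finger protein of the small subunit, had levels of 6.82 and 7.35 in WT cells without and with fructose, and of 6.34 and 7.49 in KO cells from its single-gene probe set. Both fructose arrays were above both controls, by 1.45-fold in WT and 2.22-fold in KO, and the range of 1.15 log2 units was the widest of all detected members. The probe set that carries Rps27 together with its near-identical copy Rps27rt had levels of 10.46, 10.03, 10.54 and 10.30, and was lower with fructose in both genotypes (-0.43 and -0.25).

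Rpl34 had levels of 7.24, 7.77, 7.48 and 7.82 from its single-gene probe set, higher with fructose by 0.52 in WT and 0.34 in KO. The probe set shared with Rpl34-ps1 had levels of 11.23, 11.00, 11.36 and 11.21, lower by -0.23 and -0.15. For Rpl26 the single-gene probe set gave 0.18 in WT and 0.36 in KO, and the one shared with Gm15772 gave -0.31 and -0.13. Rpl37a, higher by 0.20 in WT, was lower by -0.28 in the probe set shared with Mir682. For Rpl5 the probe set shared with Rpl5-ps2 gave 0.00 in WT and -0.02 in KO. For none of Rps27, Rpl34, Rpl26, Rpl37a and Rpl5 was a value 1.2-fold higher with fructose found in both kinds of probe set. Rpl11 and Rps4l (0.32 in WT, 0.04 in KO) were read from 1 probe set only, as was Rpl22l1 (0.24 and -0.10), a paralog of Rpl22 (-0.27 and -0.25). For Rpl24, read only together with Zbtb11, 1 of 3 shared probe sets was higher by 1.46 in WT and 0.81 in KO and the others differed by 0.00 and -0.07 in WT, so the gene behind it cannot be named.

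Probe sets of 1 gene can also differ among themselves. Of the 25 genes with more than 1 single-gene probe set, 16 had probe sets of opposite sign and more than 0.3 log2 units apart in at least 1 comparison, 8 of them for fructose in WT. In that comparison the probe sets of Rpl21 ran from -0.26 to 0.43, those of Rpl3, near the peptidyl transferase centre, from -0.39 to 0.35, and those of Rps3a1 from -0.41 to 0.25. Those of Rpl7 ran from -0.05 to 0.43, Rpl19 from -0.30 to 0.21, Rpsa from -0.31 to 0.05 and Rps19 from -0.45 to 0.00. Their averages in the text hide this spread. For Rplp1 the 2 probe sets gave -0.25 and 0.19 in KO, and for Rps26 they gave -0.34 and 0.33 for KO minus WT in control medium. Rps25 (-0.15 in WT, -0.22 in KO) and Rps29 (0.07 and -0.16), each with 1 single-gene probe set, had small differences. A dimmer probe set shared by Rps25 and Ccdc84 had the opposite sign, 0.17 in WT and 0.24 in KO.

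Members listed near background could be read in the same way. Rps16 had a shared probe set with levels of 10.37, 9.97, 10.49 and 10.24, lower by -0.40 in WT and -0.26 in KO. Rpl30 gave -0.28 in WT in each of 2 bright shared probe sets, and Rpl27a gave -0.26 in its bright one and 0.19 in a dimmer one that also carries Snora3. Taking for each protein its brightest probe set, with 1 or several genes, a choice made after the values were seen, covered 70 of the 80 proteins. Of the 48 whose brightest probe set had a mean of at least 8, 46 were below 0 in WT (median -0.30) and 45 in KO (median -0.16), where 52.8% and 48.9% of all genes at that level were. By subunit these were 31 of 33 large and 15 of 15 small in WT. The shares of all genes come from averages of single-gene probe sets and not from brightest probe sets, so the 2 measures are unlike. The 2 above 0 in WT were Rplp0 (0.12) and Rpl13a (0.02), and the 3 above 0 in KO were Rpl10 (0.07), Rps26 (0.03) and Rplp0 (0.01). The 22 proteins with only dimmer probe sets were mixed, 15 below 0 and 7 above in WT.

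**Figure D3:**
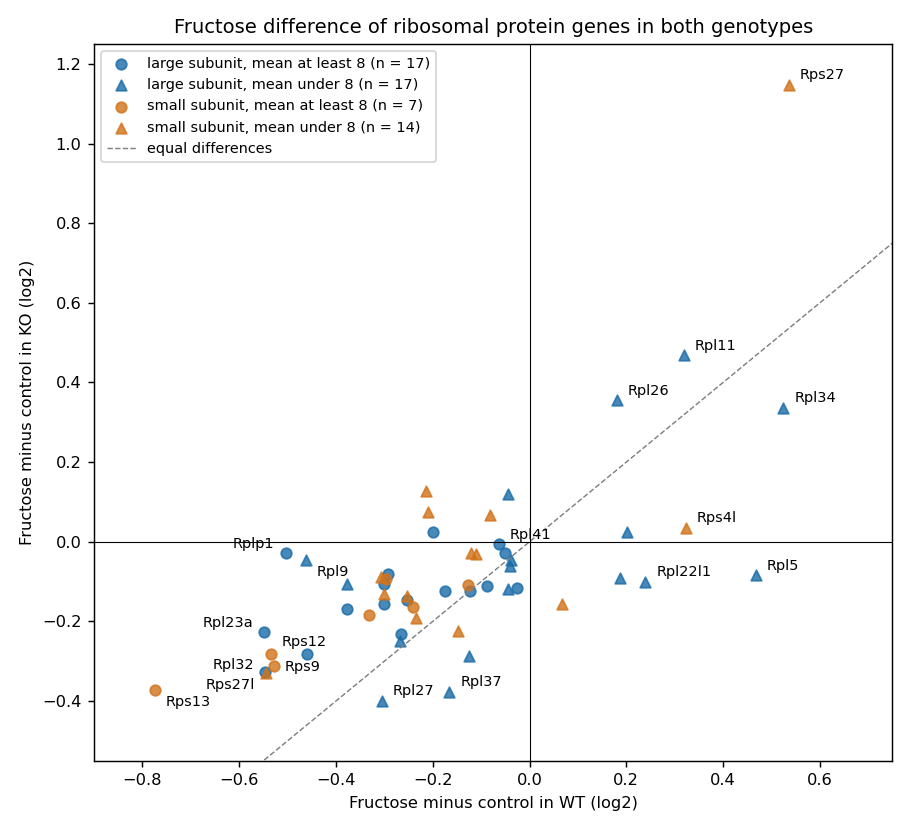
Fructose minus control in WT (horizontal axis, log2) against the same difference in KO (vertical axis, log2) for the 55 detected ribosomal protein genes, with single-gene probe sets averaged per gene; colour gives the subunit, shape the mean level and the dashed line equal differences. Most points lie at the lower left and above the dashed line, and Rps27 lies at the upper right.

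The fructose difference was lower in WT than in KO (more negative or less positive) for 38 of the 55 detected genes. Of the 45 below 0 in WT, 35 (77.8%) were less negative or positive in KO, about the share of all detected genes (77.0%), so this count does not set them apart. In both genotypes 40 (72.7%) were below 0, where 40.8% of all detected genes were. The median difference of effects, KO minus WT, was 0.04 for the large and 0.15 for the small subunit, against 0.03 for all detected genes. With each array centred on its median, the large subunit median was -0.004 and so lost its direction. Of the members, 17 of 55 were below 0, where 45% of all detected genes were. At 1.2-fold 8 genes (14.5%) were higher and 4 (7.27%) lower, where 17% and 13.3% of all detected genes were. Neither share is above that of all genes. The largest positive values were those of Rps27 (0.61), Rplp1 (0.48), Rpl9 (0.42), Rps13 (0.40), Rps26 (0.34), Rpl23a (0.32), Rps28 (0.29) and Rpl35 (0.27), and the largest negative ones those of Rpl5 (-0.55), Rpl22l1 (-0.34), Rps4l (-0.29) and Rpl7 (-0.28). For Rps27 the difference above 0 was larger in KO and for Rps13 the difference below 0 was smaller, and the shared probe set of Rps27 gave 0.18. Centring gave 6 higher and 5 lower, with no share of all detected genes given for it. Rplp1, Rps26, Rps28 and Rpl35 passed 1.2-fold through dim probe sets: the brightest probe set of each gave 0.13, 0.13, 0.19 and 0.04. Among the 24 high-signal genes, 21 were above 0 and the median was 0.16, where 42.3% of all genes at that level were below 0, and at 1.2-fold 3 were higher and 0 lower, against 15% and 9%. Across the 55 genes the WT and KO differences, which come from separate arrays, had a Pearson correlation of 0.67 and a Spearman correlation of 0.61. Over 10516 genes detected in both, the values were 0.83 and 0.79, so the members do not stand out by this measure. Genes of 1 array share its processing and are not independent.

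Without fructose the genotypes were close to each other in the averages of single-gene probe sets. Of 54 detected genes, 28 were higher and 26 lower in KO, where 52% of all detected genes were lower, with medians of -0.01 for the large and 0.01 for the small subunit. At 1.2-fold 1 gene was higher, Rpl6 (0.46, levels of 4.94 in WT control and 5.40 in KO control), and 1 lower, Rps27 (-0.47), each 1.85% of those detected, against 6.15% and 8.7% of all detected genes. With each array centred on its median 4 were higher and 1 lower, and with repeated quantile normalization or a loess correction 2 and 1. Shares of all detected genes under these scalings are not given. The next were Rpl5 (0.26), Rpl34 (0.24), Rps4l (0.24) and Rps9 (0.21) above 0, and Rpl17 (-0.24), Rpl26 (-0.23) and Rpl35 (-0.21) below. Among the 24 high-signal genes 12 were above and 12 below 0, where 53.1% of all genes at that level were below, and 0 reached 1.2-fold in either direction, against 2.78% higher and 6.46% lower. With the brightest probe set per protein, 12 of 15 high-signal small subunit proteins were above 0 (median 0.08) and 16 of 33 large ones (-0.01). Of these 48 proteins 3 were higher at 1.2-fold and 0 lower. No share of all genes by brightest probe set is given, so these counts cannot be read as many or few.

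In fructose medium the KO array had slightly higher ribosomal protein mRNA levels than the WT array, by the medians of both subunits. The medians were 0.06 for the large and 0.14 for the small subunit, against 0.01 for all detected genes, and 19 of 54 were below 0, where 47.5% of all detected genes were. The small subunit median was 0.07 without the filter on dim genes and 0.07 with several-gene probe sets added. At 1.2-fold, 8 (14.8%) were higher, the same share as the 14.8% of all detected genes, and 2 (3.7%) were lower, where 13.6% of all detected genes were. The 8 were Rps13 (0.57), Rps9 (0.43), Rpl9 (0.39), Rplp1 (0.37), Rps26 (0.34), Rps12 (0.30), Rpl6 (0.30) and Rpl15 (0.27), and the 2 were Rpl22l1 (-0.30) and Rpl5 (-0.29). Rps26, which contacts the mRNA at the exit channel, had levels of 6.60 and 6.39 in WT cells and 6.60 and 6.72 in KO cells, highest in KO with fructose. With the brightest probe set per protein, all 15 high-signal small subunit proteins were above 0 (median 0.25) and 27 of 33 large ones (0.11), where 45.4% of all genes at that level were below 0. That share of all genes comes from averages of single-gene probe sets, an unlike measure. Among the 24 single-gene high-signal members, 5 were higher at 1.2-fold and 0 lower, against 13.7% and 11.5%. Of these, Rps13 and Rpl15 were read from 1 probe set each. The brightest single-gene probe sets of Rplp1, Rps9 and Rps12 gave 0.15, 0.25 and 0.25, all under 1.2-fold. For Rps26 and Rpl9 the brightest gave more than the average, 0.46 and 0.55. This comparison shares its WT fructose array with the fructose comparison in WT, so the 2 are not separate evidence.

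Other liver cells contribute RNA to such cultures. Of 11 macrophage markers 10 were above background, and their summed log2 levels were 71.1 and 70.6 in WT cells without and with fructose and 65.3 and 65.0 in KO cells. The same sums for 9 endothelial markers, 5 of them above background, were 49.3, 48.6, 46.9 and 45.9. Both lists had lower sums in KO than in WT in both media, and all 5 detected endothelial markers were lower in KO in both (medians -0.46 and -0.38). Of the detected macrophage markers, 8 of 9 were lower in KO in control medium and 9 of 10 in fructose medium. Cd68 was the exception in both, higher in KO by 0.08 and 0.44. The sums of the 10 hepatocyte markers were 103.7, 107.4, 103.6 and 107.8, higher with fructose in both genotypes, with Tat (2.22 in WT, 2.01 in KO) highest and Hnf4a (-0.75 and -0.50) lowest. C1qc among the macrophage markers and Stab2, Clec4g, Tek and Vwf among the endothelial markers were not above background. Sums of lymphocyte markers (2 of 6 measured above background; Cd3e, Cd3g, Cd79a and Ms4a1 were not) were 25.3, 26.3, 25.1 and 25.7 in the same order, with most of the difference between media in markers at background. The detected markers Ptprc and Nkg7 differed by 0.22 and -0.001 in WT and by 0.16 and 0.07 in KO. Stellate cell markers (3 of 8 above background) had sums of 35.9 to 36.2, with Des, Lrat, Col1a2, Col3a1 and Rgs5 not above background. Cholangiocyte markers (2 of 5 measured) had sums of 32.1 to 32.4, with Krt19, Krt7 and Epcam not above background. The part of these lists in the ribosomal protein differences was not tested.

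Genes that work with the ribosome did not all share its direction. Their counts at 1.2-fold stand against 28.1% lower and 24% higher in all detected genes in WT, and 21.4% each way in KO. Of 66 detected mitochondrial ribosomal proteins, 53 were below 0 with fructose in WT (median -0.20; 26 or 39.4% lower and 4 or 6.06% higher at 1.2-fold) and 55 in KO (-0.14; 18 or 27.3% lower and 3 or 4.55% higher). Mrpl49 (-1.01 in WT and -0.63 in KO) and Mrps25 (-0.98 and -0.58) were the lowest of these and Mrps18b (0.49 and 0.41) the highest. Their medians lay close to those of the cytosolic genes. Among 19 detected other genes known for TOP mRNAs, mainly elongation and initiation factors, 15 were below 0 in each genotype (medians -0.14 and -0.06), with 5 (26.3%) lower and 2 (10.5%) higher at 1.2-fold in WT and 1 lower and 1 higher in KO (5.26% each). Vim, which encodes vimentin (-0.86), and the initiation factor subunit gene Eif3l (-0.62) were lowest in WT, and Snhg1, a host gene of small nucleolar RNAs, was highest in both (0.64 and 0.79). Fau, a small subunit protein gene outside the name rule, differed by -0.02 and -0.11.

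Ribosome assembly genes went both ways, with medians above 0. Of 60 detected ribosome biogenesis genes, 38 were above 0 in WT (median 0.12; 18 or 30% higher and 8 or 13.3% lower at 1.2-fold) and 39 in KO (0.07; 14 or 23.3% higher and 10 or 16.7% lower). In WT Gnl3, which encodes nucleostemin, and Gar1, a subunit of the pseudouridylation complex, were both higher by 0.81, and Ubtf, a factor for transcription of ribosomal RNA genes, was lower by -0.78. Riok1, an assembly kinase, and Sdad1 were higher by 0.58 each in KO, where Dkc1, the pseudouridine synthase, was lower by -0.55. Translation initiation factors had medians of 0.07 in WT and 0.01 in KO (7 higher and 7 lower of 28 in WT, 25% each, and 6 and 5 in KO, 21.4% and 17.9%), shares near those of all genes, from Eif4e2 at 0.59 to Eif4g3 at -0.48 in WT. Genes of ribosome quality control and import had medians of 0.01 and -0.01 over 21 genes, with 5 (23.8%) higher and 2 (9.52%) lower in WT and 3 (14.3%) and 1 (4.76%) in KO. In that list Pelo, which rescues stalled ribosomes, was higher by 0.92 and 0.84, and the importin gene Ipo9 was lower by -0.91 and -0.64. The 11 detected control genes had medians of 0.03 in WT and -0.03 in KO.

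**Figure D4:**
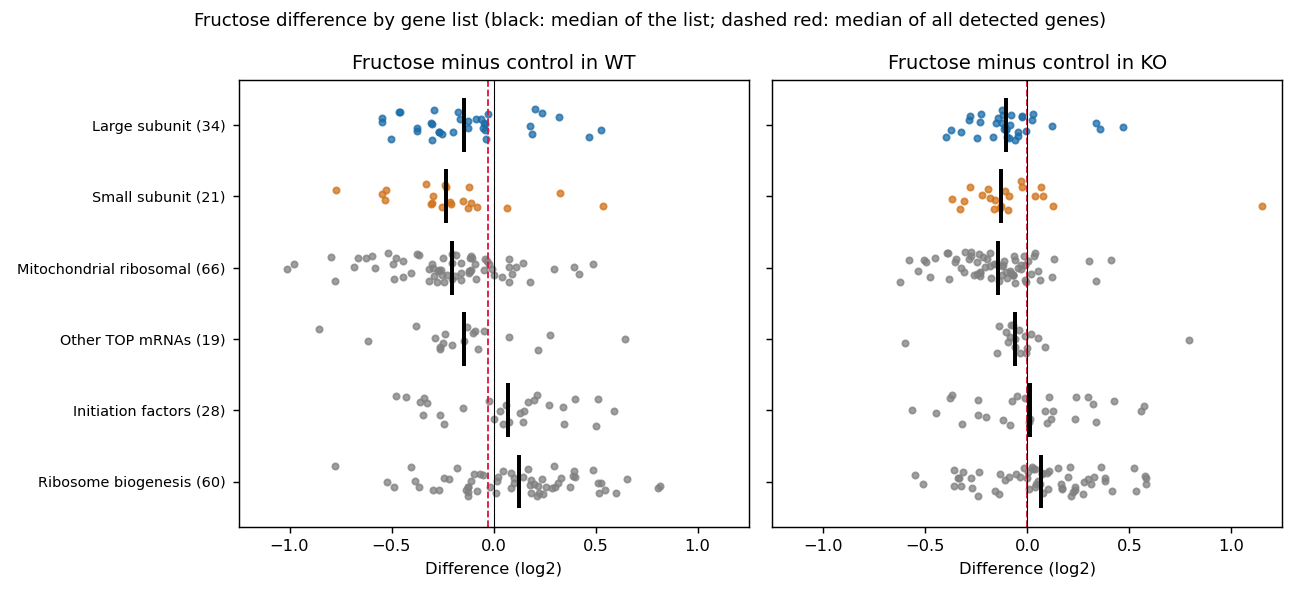
Fructose minus control (log2, horizontal axis) in WT (left) and KO (right) for the detected genes of 6 lists, with 1 point per gene, the number of genes in brackets, the list's median as a black bar and the median of all detected genes as a dashed red line. The bars of both cytosolic subunits and of the mitochondrial ribosomal proteins lie left of the dashed line in both panels, and that of ribosome biogenesis lies right of it.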

How the data were processed

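RNA of 4 groups of primary mouse hepatocytes was measured on 1 array each (400 ng of total RNA, biotin label, whole-transcript chemistry, per the labels). The authors deposited a log2 level for each probe set, for which the submitters' processing notes name RMA and R 3.4.0. Annotation version and genome build: not given in the sources used here. Of 41345 probe sets, 23521 carry 1 gene symbol in the platform table, 1814 several and 16010 none. Names were updated by Entrez number to RefSeq (GRCm38.p6), and probe sets of a gene were averaged, which left 22180 genes. Log2 differences were taken for 5 comparisons in Python 3.11.15 with pandas 2.3.3 and numpy 2.4.6. A loess alternative used statsmodels 0.14.6. Genes were counted at 1.2-fold and 2-fold, without p-values. Counting was tested on simulated data.

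The members and lists were chosen with earlier results of these data known. Named members are, per comparison and subunit, the 4 highest and 4 lowest, the 4 with the widest and 2 with the narrowest range, paralogs, the stalk and 5S proteins, Fau, and genes whose probe sets differ in sign by more than 0.3. From each other list come the 2 highest and 2 lowest. Further members, and all values of probe sets with several genes, were chosen after their values were seen. Precision is limited by the number of arrays, 1 per group.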

Additional observations from a re-analysis of the deposited data

How the results depend on the processing

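The medians of both subunits in the 5 comparisons were recomputed under all alternatives, 130 values, and 122 kept their sign. Each moved by less than the SD over the genes of that subunit. That SD is larger than each reported median, so a median could reach 0 and still stay within it. Staying within it is therefore no check of stability. The sign was lost by the large subunit difference of effects with arrays centred (-0.004) and otherwise only by medians of the genotypes in control medium, which lie near 0. With fructose in WT the large subunit median ran from -0.27 to -0.09 and the small from -0.33 to -0.18. In KO they ran from -0.15 to -0.09 and from -0.18 to -0.07. For the genotypes in fructose medium they ran from 0.04 to 0.09 and from 0.07 to 0.16, and for the difference of effects from -0.004 to 0.14 and from 0.10 to 0.20. Counts at 1.2-fold are small and moved more: 89 of 140 stayed within 1.5 times the reported count. The others follow, as genes higher and lower in WT (fructose minus control), in KO, for the genotypes (KO minus WT) in either medium, and for the difference of effects. With arrays centred, WT gave 12 lower and control medium 4 higher. With repeated quantile normalization, and with loess, control medium gave 2 higher. Without the filter on dim genes control medium gave 2 lower. With the stricter filter KO gave 2 higher, control medium 0 higher and fructose medium 1 lower. With the brightest single-gene probe set control medium gave 4 higher and the difference of effects 5 higher. With known proteins only, fructose medium gave 1 lower and the difference of effects 2 lower. With several-gene probe sets added, WT gave 3 higher, control medium 3 higher and 0 lower, and fructose medium 1 lower. At 1.5-fold WT gave 0 higher and 1 lower, KO 1 and 0, control and fructose medium 0 and 0, and the difference of effects 1 and 0. At 2-fold all counts were 0 except KO with 1 higher. Without the most different gene, Rps27, control medium gave 0 lower. The next alternatives were chosen after seeing the data. With a mean of at least 8, WT gave 0 higher, KO 0 and 5, control medium 0 and 0, fructose medium 5 and 0, and the difference of effects 3 and 0. With the brightest probe set of 1 or several genes WT gave 3 higher, control medium 5 and 0, fructose medium 14 higher and the difference of effects 5 higher. Counting identical probe sets once changed no count by over 1.5 times. The cause of these changes was not tested. No array could be left out, and no difference has an error. No paired analysis was possible because the groups share fewer than 2 replicate numbers, and a fit with genotype as a block, which takes the fructose effect as equal in both genotypes, was not run. Signal limits 12 genes, which lay below background on all arrays.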
